A study of Mus musculus with 8 samples.

Results

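The oligodendrocyte lineage was followed across genotype and stage in embryonic mouse brain through 9 genes: the transcription factors Olig1, Olig2, Sox10 and Sox8, the surface genes Pdgfra, Cspg4 and Gpr17, and the myelin genes Cnp and Mbp. They were chosen by name, as genes of oligodendrocyte precursors and early myelin, with earlier results of these data known. Through their Ensembl identifiers they were matched to 9 of the 34866 rows of the counts table. All 9 passed the filter on low counts. The brains came from 8 embryos of a mouse line that models hypoplastic left heart syndrome, a defect in which left heart structures stay small. The 3 mutants were m/m for Sap130 and m/m for Pcdha9, and the 5 controls were +/m for both genes, so every embryo carried a mutant allele of each and no wild-type brain was measured. At E13.5 there were 1 mutant (260-1) and 2 controls (260-2 and 260-3). At E14.5 there were 2 mutants (195-3 and 303-2) and 3 controls (195-2, 195-6 and 303-3). The number before the hyphen may mark a litter, but the labels do not define it.

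Oligodendrocytes form the myelin of the central nervous system. Their precursors arise from ventral neural progenitors that express Olig2, first in the hindbrain, spinal cord and ventral forebrain and later in dorsal regions, and then spread through the brain. Precursors express Pdgfra, Cspg4 and Sox10, divide in response to platelet-derived growth factor, pass through a committed state marked by Gpr17, and finally switch on myelin genes. In a bulk sample fewer cells of a type and less RNA per cell cannot be told apart.

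Library totals ranged from 36438282 to 47838448 counts. Sap130 was lower in all 3 mutants (32.6 to 35.9 CPM, counts scaled to library size with TMM factors) than in all 5 controls (46.8 to 52.1 CPM), with edgeR adjusted p = 0.00291. Pcdha9 was also called lower (log2 -0.66, adjusted p = 0.0212), at 9.47 to 18.2 CPM in mutants and 14.9 to 24.6 CPM in controls. The libraries differed in genes that mark brain regions. Whether the tissue taken or the expression within it differed was not tested. The summed level of 16 Hox genes, which mark the hindbrain and spinal cord, came to only 0.655 CPM in mutant 260-1 and 3.13 CPM in control 195-6, against 201 to 443 CPM in the other 6. The summed level of 15 telencephalon genes was 338 CPM in mutant 195-3 and 833 CPM in mutant 303-2, against 1458 to 1756 CPM in the other 6. The genes of this sum did not move alike. Dlx1 was at 36.1 and 25.8 CPM in these mutants, against 188 to 245 CPM in controls. Emx1 was at 3.45 and 31.65 CPM, against 22.55 to 34.8 CPM in controls. The genotype changes of the 9 genes and the counts over gene lists are therefore also given for the 6 libraries that express Hox genes. In that set no E13.5 mutant remains, and the genotype difference rests on mutants 195-3 and 303-2 and controls 195-2 and 303-3. The set drops the 2 libraries with Hox sums near 0 but does not even out the Hox genes. Of the 16, 10 were called higher in its mutants and 0 lower, where 5.64% and 5.65% of all genes were. Their median log2 change there was 0.88. The Hox sums were 443 and 319 CPM in mutants 195-3 and 303-2, above every control of the set (201 to 285 CPM). These 2 mutants are those with the low telencephalon sums, and they are also the only mutants at E14.5. The median log2 genotype change of the 15 telencephalon genes was -1.95 in the 6 libraries and -2.02 at E14.5. Genotype and telencephalon level cannot be told apart in either set.

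All 9 genes had a negative log2 change in the mutants, and 2 of them, Mbp and Sox8, passed the threshold of adjusted p under 0.05 (edgeR quasi-likelihood test with stage in the model). Across all 17357 genes tested, 9.74% were called lower and 10.9% higher, 20.6% in all. DESeq2 called 5 of the 9 lower (Olig1, Pdgfra, Sox8, Gpr17 and Mbp), where it called 11.8% of all genes lower, 13.3% higher and 25.1% in all. The median log2 change of the 9 genes was -0.47, against 0.00 for all genes tested. Mbp was the only one of the 9 in which all 3 mutants lay below all 5 controls, a pattern shown by 8.61% of all genes tested. In the 6 libraries that express Hox genes 4 of the 9 were called lower (Pdgfra, Sox8, Gpr17 and Mbp), where 5.65% of all genes tested were called lower and 11.3% in either direction. In the 5 libraries of E14.5 alone 1 of 9, Sox8, was called, against 4.32% of all genes called lower, 4.4% higher and 8.72% in all.

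**Figure D1:**
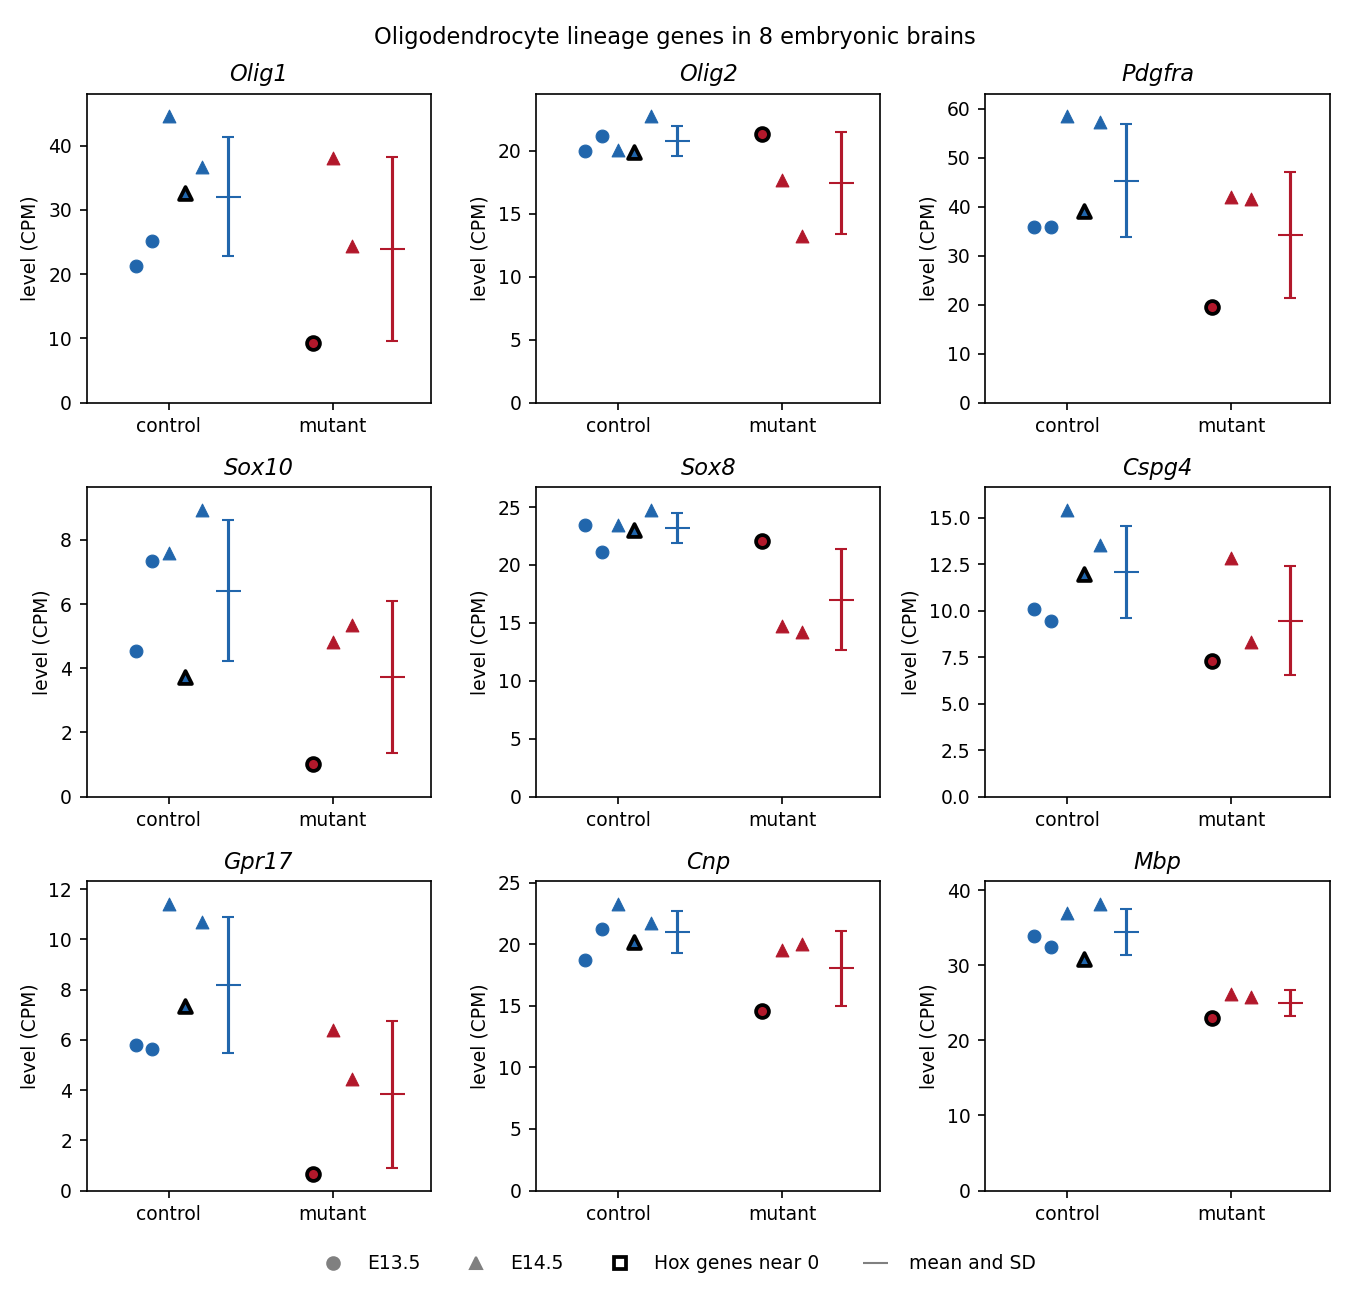
Level of each gene in CPM (y axis, linear, from 0) in the 5 control and 3 mutant brains (x axis), with circles for E13.5, triangles for E14.5, black outlines for the 2 libraries with Hox genes near 0, and bars for the mean and SD. For Mbp the mutants at 23.0 to 26.1 CPM lie under all controls, and for Sox8 and Olig2 the mutant at E13.5 lies among the controls while both mutants at E14.5 lie below them.

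**Figure D2:**
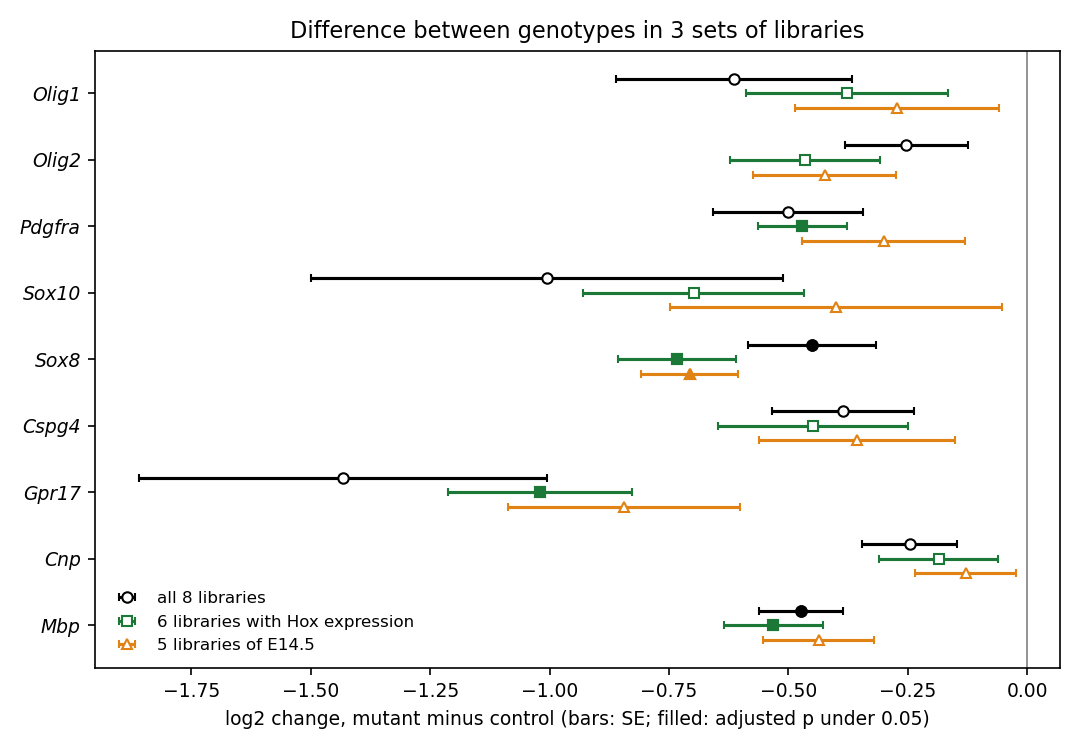
Log2 change between mutants and controls (x axis) for each gene (y axis) in all 8 libraries, in the 6 libraries that express Hox genes and in the 5 libraries of E14.5, with bars for the SE and filled symbols for adjusted p under 0.05. Every point lies below 0, and Sox8, at -0.45, -0.73 and -0.71, is filled in all 3 sets.

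Olig1 and Olig2 encode related basic helix-loop-helix transcription factors and lie next to each other on chromosome 16, Olig2 (ENSMUSG00000039830.8) at chr16:91225457-91228677 and Olig1 (ENSMUSG00000046160.6) at chr16:91269772-91271933, both on the plus strand of GRCm38. Olig2 directs ventral progenitors to make motor neurons and oligodendrocytes, and Olig1 acts in their maturation. Although neighbours, they did not vary together in these brains.

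Olig1 was at 21.3 and 25.1 CPM in the E13.5 controls, at 44.6, 32.6 and 36.7 CPM in controls 195-2, 195-6 and 303-3, and at 9.33, 38.01 and 24.4 CPM in mutants 260-1, 195-3 and 303-2. Mutant 260-1 was below every control, while mutant 195-3 lay within the range of the E14.5 controls. The means were 23.9 ± 14.3 CPM (SD, n = 3) in mutants and 32.1 ± 9.24 CPM (n = 5) in controls, a log2 change of -0.61 (SE 0.25, edgeR adjusted p = 0.115) that did not pass the threshold. It was -0.38 (SE 0.21, adjusted p = 0.274) in the 6 libraries that express Hox genes. Single libraries moved it to -0.27 (adjusted p = 0.408, without mutant 260-1) and to -0.96 (adjusted p = 0.00594, without mutant 195-3), where it passed.

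Olig2 was nearly constant in the controls, at 19.98, 21.2, 20.1, 19.9 and 22.7 CPM in 260-2, 260-3, 195-2, 195-6 and 303-3. It was at 21.3 CPM in mutant 260-1, 17.7 CPM in mutant 195-3 and 13.3 CPM in mutant 303-2. Mutant 260-1 thus lay inside the control range and both E14.5 mutants lay below it. The log2 change was -0.25 (SE 0.13, edgeR adjusted p = 0.187) over all libraries and -0.47 (SE 0.16, adjusted p = 0.0852) in the 6 that express Hox genes, and neither passed. It was -0.11 (adjusted p = 0.544) without mutant 303-2 and -0.42 (adjusted p = 0.0778) without mutant 260-1.

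Sox8 and Sox10 encode related SOX transcription factors of the SoxE group. Sox10 (ENSMUSG00000033006.10; chr15:79154908-79165240, minus strand) drives myelin gene expression in oligodendrocytes and is also expressed in neural crest and Schwann cells, and Sox8 (ENSMUSG00000024176.10; chr17:25565892-25570686, minus strand) overlaps with it in function in oligodendrocytes. Their patterns over the libraries differed from each other.

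Sox8 was at 23.4, 21.2, 23.5, 23.0 and 24.7 CPM in controls 260-2, 260-3, 195-2, 195-6 and 303-3, and at 22.1, 14.8 and 14.2 CPM in mutants 260-1, 195-3 and 303-2. As for Olig2, the E13.5 mutant lay among the controls and both E14.5 mutants lay below all of them. Mean levels of 17.0 ± 4.395 CPM (mutants) and 23.2 ± 1.29 CPM (controls) gave a log2 change of -0.45 (SE 0.13, edgeR adjusted p = 0.0406). At E14.5 alone Sox8 fell by 0.71 (SE 0.10, adjusted p = 0.0124), and in the 6 libraries that express Hox genes by 0.73 (SE 0.12, adjusted p = 0.00875). In both sets Sox8 was read from the same mutants, 195-3 and 303-2, which had the low telencephalon sums. Its call over all libraries was lost without control 260-2 (adjusted p = 0.0667), control 195-2 (0.09998), control 195-6 (0.0630), control 303-3 (0.0970), mutant 195-3 (0.0654) or mutant 303-2 (0.145), and without mutant 260-1 the change was -0.71 (0.00416).

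Sox10 was at 4.54, 7.34, 7.58, 3.72 and 8.92 CPM in controls 260-2, 260-3, 195-2, 195-6 and 303-3, and at 1.02, 4.83 and 5.34 CPM in mutants 260-1, 195-3 and 303-2. The lowest mutant and the lowest control were the 2 libraries with Hox genes near 0, and the E14.5 mutants overlapped the controls. The value in mutant 260-1 rested on 45 counts. Mean levels were 3.73 ± 2.36 CPM in mutants and 6.42 ± 2.20 CPM in controls, with a log2 change of -1.005 (SE 0.49, edgeR adjusted p = 0.187). Without both of these libraries it was -0.70 (SE 0.23, adjusted p = 0.0809), and without mutant 260-1 alone it was -0.40 (SE 0.37, adjusted p = 0.506).

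Because Sox10 is shared with the neural crest, 13 neural crest and Schwann cell genes were read beside it. Their summed level was 223, 344 and 353 CPM in mutants 260-1, 195-3 and 303-2 and 217 to 305 CPM in the controls. Between genotypes 0 of the 13 were called, where 20.6% of all genes were. Of the 13, 9 had their lowest level in mutant 260-1, the library lowest in Sox10, and 1 had its highest level there. That was not particular to this list. The same library was lowest for 12 of 16 Hox genes, 12 of 19 further precursor genes and 12 of 24 myelin genes. It was lowest for 3 of 21 regulators and 0 of 15 telencephalon genes. In the 6 libraries that express Hox genes 4 of the 13 were called higher and 0 lower, where 5.64% of all genes were called higher. Their part in the Sox10 values was not tested.

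For Olig2 and Sox8, which moved together, and for Pdgfra and Cnp, which followed another pattern, the RefSeq promoter sequences (GRCm38.p6, 250 bases before to 50 bases after the transcript start, gene strand, 5′ to 3′) are shown. RefSeq promoters were matched for 5 of the 9 genes, these 4 and Cspg4. Capitals mark the E-box CANNTG, the kind of site that helix-loop-helix factors such as Olig2 bind, and the SOX-type cores ACAAAG and ACAATG, each searched on both strands.
Olig2, chr16:91225300-91225599, plus strand: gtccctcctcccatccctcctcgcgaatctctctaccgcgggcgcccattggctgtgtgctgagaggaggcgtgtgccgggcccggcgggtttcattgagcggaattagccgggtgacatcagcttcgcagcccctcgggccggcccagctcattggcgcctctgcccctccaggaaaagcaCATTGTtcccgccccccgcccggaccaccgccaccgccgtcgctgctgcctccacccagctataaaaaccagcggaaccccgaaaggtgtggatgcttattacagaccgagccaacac
Sox8, chr17:25570637-25570936, minus strand: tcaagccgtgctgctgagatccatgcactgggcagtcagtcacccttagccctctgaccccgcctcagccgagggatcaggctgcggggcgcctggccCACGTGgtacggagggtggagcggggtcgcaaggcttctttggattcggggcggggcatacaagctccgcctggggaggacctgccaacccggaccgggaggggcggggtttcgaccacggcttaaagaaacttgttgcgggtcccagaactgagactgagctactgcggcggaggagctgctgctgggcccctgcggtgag
Pdgfra, chr5:75152001-75152300, plus strand: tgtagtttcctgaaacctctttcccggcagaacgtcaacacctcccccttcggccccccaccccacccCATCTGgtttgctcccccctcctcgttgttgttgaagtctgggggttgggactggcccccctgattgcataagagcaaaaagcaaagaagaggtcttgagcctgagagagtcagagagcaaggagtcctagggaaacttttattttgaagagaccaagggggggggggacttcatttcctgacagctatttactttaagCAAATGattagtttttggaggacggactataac
Cnp, chr11:100574689-100574988, plus strand: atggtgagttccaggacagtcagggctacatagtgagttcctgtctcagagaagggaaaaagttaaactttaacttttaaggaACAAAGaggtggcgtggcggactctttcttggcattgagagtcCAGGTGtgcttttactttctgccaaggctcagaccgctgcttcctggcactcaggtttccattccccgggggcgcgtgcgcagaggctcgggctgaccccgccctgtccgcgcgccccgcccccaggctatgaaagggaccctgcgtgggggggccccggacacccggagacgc

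The E-box matched 0 times in the Olig2 window, 1 time for Sox8, 2 times for Pdgfra and 1 time for Cnp. A SOX-type core matched 1 time each for Olig2 and Cnp and 0 times for Sox8 and Pdgfra. Of 32851 mouse promoters of the same length, 72.3% held an E-box and 28.6% held either SOX-type core, so these matches are common. The GC content was 65.0% for Olig2, 66.3% for Sox8, 51.0% for Pdgfra and 59.7% for Cnp.

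Pdgfra (ENSMUSG00000029231.15; chr5:75152292-75198215, plus strand) encodes the receptor for platelet-derived growth factor A, the main mitogen of oligodendrocyte precursors, and is also expressed by meningeal fibroblasts. It was at 35.8, 35.9, 58.4, 39.1 and 57.2 CPM in controls 260-2, 260-3, 195-2, 195-6 and 303-3, and at 19.5, 41.9 and 41.4 CPM in mutants 260-1, 195-3 and 303-2. Mutant 260-1 lay below all controls, and the E14.5 mutants lay below controls 195-2 and 303-3 but above control 195-6. Mean levels of 34.3 ± 12.8 CPM (mutants) and 45.3 ± 11.5 CPM (controls) gave a log2 change of -0.50 (SE 0.16, edgeR adjusted p = 0.0510) just outside the threshold. Pdgfra fell by 0.47 (SE 0.09, adjusted p = 0.0159) in the 6 libraries that express Hox genes. It was called without control 195-6 (-0.63, adjusted p = 0.00518), and without mutant 260-1 it was -0.30 (adjusted p = 0.221).

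Cspg4 (ENSMUSG00000032911.6; chr9:56865033-56899870, plus strand) encodes the NG2 proteoglycan of oligodendrocyte precursors and of pericytes. It was at 10.1, 9.43, 15.4, 11.97 and 13.53 CPM in the controls in the same order, and at 7.27, 12.8 and 8.32 CPM in mutants 260-1, 195-3 and 303-2. Mutants 260-1 and 303-2 were below every control and mutant 195-3 was among them. The log2 change was -0.39 (SE 0.15, edgeR adjusted p = 0.0916), and -0.45 (adjusted p = 0.167) in the 6 libraries that express Hox genes. It passed without mutant 195-3 (-0.60, adjusted p = 0.00875) and was -0.25 (adjusted p = 0.281) without mutant 303-2.

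Since Pdgfra and Cspg4 are shared with other cells, markers of those cells were read too. The summed level of 15 fibroblast and meninges genes was 634 to 1070 CPM in mutants and 570 to 845 CPM in controls, and 1 of the 14 tested, Lum, rose while 0 fell, where 10.9% of all genes rose. In the 6 libraries that express Hox genes 2 of 15 rose and at E14.5 3 of 15 (5.64% and 4.4% of all genes), and 0 fell in either. The summed level of 12 pericyte and mural genes was 277 to 383 CPM in mutants and 282 to 312 CPM in controls, and 0 of 12 were called in either direction over all libraries, while 1 of 12 rose in the 6 libraries and 1 at E14.5. In mutant 260-1, lowest in both Pdgfra and Cspg4, the pericyte sum (277 CPM) was below every control and the fibroblast sum (634 CPM) below both E13.5 controls (645 and 845 CPM). In mutants 195-3 and 303-2 both sums were above every control. Toward E14.5 2 of the 12 pericyte genes rose, where 2.24% of all genes did, Rgs5 by 0.40 (edgeR adjusted p = 0.0368) and Higd1b by 1.02 (adjusted p = 0.0486). Both stage calls were lost without mutant 260-1 or control 260-2, 260-3, 195-2 or 303-3 and in the 6 libraries (adjusted p up to 0.166 and 0.250), and that of Higd1b also with upper quartile factors. The median log2 genotype changes of the lists were 0.20 and 0.18. Their part in the Pdgfra and Cspg4 values was not tested.

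Gpr17 (ENSMUSG00000052229.5; chr18:31942997-31949636, minus strand) encodes a G protein-coupled receptor of committed oligodendrocyte precursors. It was at 5.79, 5.65, 11.4, 7.35 and 10.7 CPM in controls 260-2, 260-3, 195-2, 195-6 and 303-3. In the mutants it was at 0.655 CPM in 260-1, which rests on 29 counts, 6.41 CPM in 195-3 and 4.43 CPM in 303-2. At each stage the mutants lay below the controls of that stage, although mutant 195-3 was above the E13.5 controls. Mean levels were 3.83 ± 2.92 CPM in mutants and 8.18 ± 2.71 CPM in controls, the largest log2 change of the 9 genes at -1.43 (SE 0.43, edgeR adjusted p = 0.0518), just outside the threshold. Gpr17 fell by 1.02 (SE 0.19, adjusted p = 0.0134) in the 6 libraries that express Hox genes. It also passed without mutant 260-1, where the change was smaller (-0.84, SE 0.22, adjusted p = 0.0379), without mutant 195-3 (-1.86, adjusted p = 0.0275) and without control 195-6 (-1.65, adjusted p = 0.0359).

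Gpr17 lies 219936 bases from Sap130 on chromosome 18. Of the 12 genes tested within 500 kb of Sap130, Gpr17 among them and Sap130 left out, 1 was called higher and 1 lower, where 10.9% and 9.74% of all genes were. By estimate 9 of the 12 were below 0, with a median log2 change of -0.07, against -0.0005 for all genes tested. Exons of Gpr17 share 188 bases with exons of Lims2 on the opposite strand, and the library kit does not mark strand, so reads there cannot be told apart. Lims2 averaged 0.958 ± 0.167 CPM (mutants) and 1.51 ± 0.216 CPM (controls), with a log2 change of -0.68 (edgeR adjusted p = 0.0236). It lies in the same window and is the 1 gene there called lower.

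Cnp (ENSMUSG00000006782.16; chr11:100574904-100591729, plus strand) encodes CNPase, an enzyme of myelin-forming cells. It was at 18.7, 21.2, 23.3, 20.2 and 21.8 CPM in controls 260-2, 260-3, 195-2, 195-6 and 303-3, and at 14.6, 19.5 and 20.1 CPM in mutants 260-1, 195-3 and 303-2. Mutant 260-1 lay below all controls, and the E14.5 mutants lay below the 3 E14.5 controls but above control 260-2. The log2 change was -0.25 (SE 0.10, edgeR adjusted p = 0.102), -0.19 (adjusted p = 0.348) in the 6 libraries that express Hox genes and -0.13 (adjusted p = 0.469) without mutant 260-1. Exons of Cnp share 154 bases with Dnajc7 on the other strand, whose mean level was 212 ± 4.16 CPM (mutants) and 200.5 ± 10.3 CPM (controls; edgeR adjusted p = 0.334).

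Mbp (ENSMUSG00000041607.16; chr18:82475146-82585637, plus strand) encodes myelin basic protein, and its locus also makes golli transcripts, which neurons express and which gene counts do not separate. It was at 33.9, 32.5, 37.0, 30.8 and 38.1 CPM in controls 260-2, 260-3, 195-2, 195-6 and 303-3, and at 23.0, 26.1 and 25.8 CPM in mutants 260-1, 195-3 and 303-2. The genotypes did not overlap at either stage. Mean levels were 25.0 ± 1.72 CPM in mutants and 34.5 ± 3.06 CPM in controls, and Mbp fell by 0.47 on the log2 scale (SE 0.09, edgeR adjusted p = 0.00811). It fell by 0.53 (SE 0.10, adjusted p = 0.0148) in the 6 libraries that express Hox genes. The call held in 17 of 19 alternatives and was missed with E14.5 libraries alone (adjusted p = 0.0588; 0.0968 with the title number as a block). Mbp lies on the same chromosome as both mutated genes, 45287489 bases from Pcdha9 and 50752085 bases from Sap130.

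Within each title number the mutant was lower than the mean of its controls for 8 of the 9 genes in all 3 numbers, the exception being Olig2 in 260 (log2 difference 0.05). Among all genes tested, 25.2% were lower in all 3 numbers. The median difference of the 9 genes was -0.53 in 260, -0.18 in 195 and -0.70 in 303, against medians of 0.01, -0.00 and 0.01 over all genes tested. The sizes differed between genes: Gpr17 and Sox10 had their widest gap in 260 (-3.04 and -2.45), while Sox8 and Olig2 had theirs in 303 (-0.80 and -0.77). Number 195 had small gaps for Olig1 (-0.005), Cspg4 (-0.08) and Sox10 (-0.14).

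**Figure D3:**
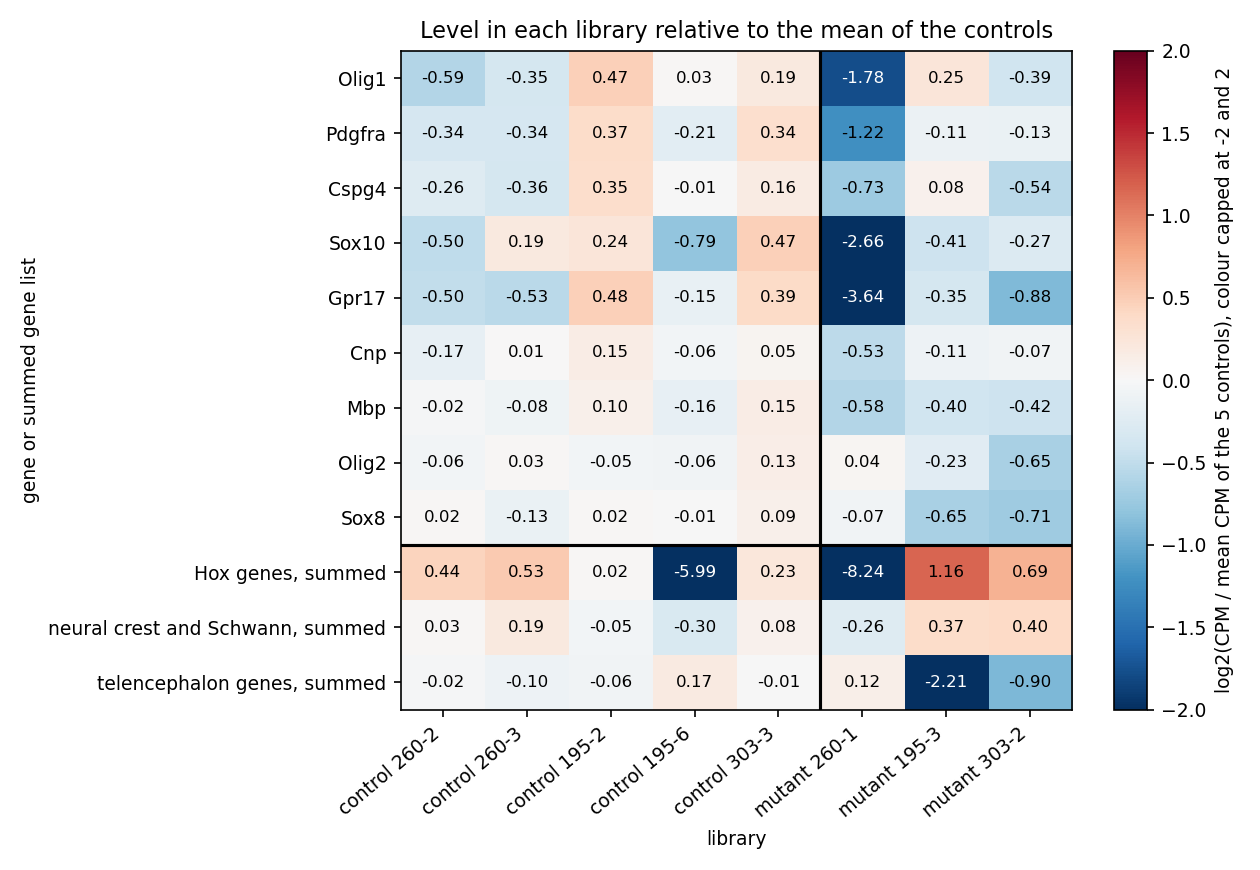
Log2 ratio of the level in each library (x axis) to the mean of the 5 controls, for the 9 genes and for 3 summed gene lists (y axis), with the colour capped at -2 and 2 and the value printed in each cell. Mutant 260-1 is lowest for Gpr17 (-3.64), Sox10 (-2.66) and Olig1 (-1.78), and mutants 195-3 and 303-2 are lowest for Sox8 (-0.65 and -0.71) in the columns where the telencephalon sum is also low (-2.21 and -0.90).

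Apart from Mbp, the genes fell into 2 patterns over the 8 libraries. Olig1, Pdgfra, Sox10, Cspg4, Gpr17 and Cnp followed each other, with Pearson correlations of log2 CPM between 0.66 and 0.95 over the 8 libraries. Olig2 and Sox8 followed each other (0.86) but not those 6 genes (-0.08 to 0.27), and Mbp lay between, at 0.48 to 0.80 with the other 8. Without mutant 260-1 the ranges overlapped, so the separation rested on that library. Over the other 7 libraries the correlations were 0.29 to 0.93 within the 6 genes and 0.13 to 0.66 between them and Olig2 or Sox8. For Olig2 with Sox8 the value stayed at 0.86. In the 6 libraries that express Hox genes the ranges were 0.45 to 0.93 within and 0.11 to 0.66 between. These are descriptions over libraries that also differ in genotype, stage and region markers.

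The genotype difference was also compared between stages with an interaction term, positive where the mutant change was higher at E14.5 than at E13.5. None of the 9 passed by edgeR, where 18 of 17357 genes (0.104%; 0.023% positive and 0.0807% negative) did. At an unadjusted p under 0.05 there were 4 of the 9 and 9.34% of all genes, and DESeq2 called 2, Gpr17 and Sox10, both positive, against 1.39% of all genes, 1.05% positive and 0.346% negative. The terms were 2.27 for Gpr17 (SE 0.44, edgeR adjusted p = 0.106), 2.14 for Sox10 (SE 0.68, adjusted p = 0.408), 1.03 for Olig1 (SE 0.35, adjusted p = 0.429) and -0.70 for Sox8 (SE 0.17, adjusted p = 0.221). Without mutant 195-3 or mutant 303-2 the fit has 1 mutant at each stage, so only the terms are given. They were 1.97 and 2.53 for Gpr17 and 0.68 and 1.34 for Olig1, in that order. E13.5 had a single mutant, and it is the one with Hox genes near 0, so stage and that low Hox level cannot be told apart here.

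Between stages, 7 of the 9 genes were higher at E14.5 than at E13.5 by estimate, and 1, Pdgfra, passed the threshold, where 3.26% of all genes were called, 2.24% higher and 1.01% lower. DESeq2 called 4 of the 9 higher (Olig1, Pdgfra, Cspg4 and Gpr17), against 13.6% of all genes, 8.2% higher and 5.42% lower. Pdgfra rose by 0.72 on the log2 scale (SE 0.16, edgeR adjusted p = 0.0486), a call lost with upper quartile scaling (0.0568) and without each of the libraries 260-1, 260-2, 260-3, 195-2, 303-3, 195-3 or 303-2 (0.0527 to 0.242). It rose by 0.69 (adjusted p = 0.0367) in the 6 libraries that express Hox genes, where 0.16% of all genes were called, 0.12% higher and 0.0401% lower. In the controls alone it was 0.52 (adjusted p = 0.117) and did not pass. Gpr17 had a log2 change of 1.35 (SE 0.43, adjusted p = 0.106), Olig1 1.04 (SE 0.25, adjusted p = 0.0630) and Cspg4 0.50 (SE 0.15, adjusted p = 0.0803). In the controls alone Olig1 rose by 0.70 (SE 0.13, adjusted p = 0.0109), from 23.2 ± 2.72 CPM (n = 2) to 37.95 ± 6.06 CPM (n = 3), and Gpr17 by 0.77 (SE 0.18, adjusted p = 0.0244), from 5.72 ± 0.100 to 9.81 ± 2.16 CPM, where 5.49% of all genes were called, 3.22% higher and 2.27% lower. The other genes did not pass there, with log2 changes of 0.48 for Cspg4 (adjusted p = 0.0510), 0.17 for Sox10, 0.12 for Cnp, 0.08 for Mbp, 0.02 for Olig2 and 0.09 for Sox8. All E13.5 brains share the title number 260, so stage and that number cannot be told apart.

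Levels were compared between genes per kilobase of annotated exon. In controls Olig1 was highest at 14.8 ± 4.28 CPM per kb (n = 5), a level above that of 78.9% of genes tested. Olig2 followed at 8.21 ± 0.478 and Sox8 at 7.43 ± 0.413 CPM per kb, which overlapped each other, lay below every Olig1 value and above every Cnp value. Cnp (5.78 ± 0.470), Pdgfra (4.52 ± 1.15) and Mbp (4.07 ± 0.361) overlapped from neighbour to neighbour. Sox10 (2.10 ± 0.720), Gpr17 (1.57 ± 0.522) and Cspg4 (1.01 ± 0.206) came last, each overlapping its neighbour in that order, and all values of Sox10 lay below all of Mbp. The mutants had the same order except that Cspg4 (0.794 ± 0.247 CPM per kb) stood above Gpr17 (0.737 ± 0.563).

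The genes most like Olig2 over the 8 libraries were Olfr506 (r = 0.973), Ptger1 (0.969) and Olfr318 (0.968). Olfr506 and Olfr318 were under 1 CPM in every library, and Ptger1 was at 2.95 CPM in mutant 303-2 and 3.54 to 4.07 CPM in the others. Those most like Sox10 were Itgb4 (r = 0.993), Fbln2 (0.985) and Tpbgl (0.982). Itgb4, an integrin subunit gene, was at 0.497 CPM in mutant 260-1 and 1.40 CPM in control 195-6, against 1.55 to 3.20 CPM in the other 6.

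Other genes of the lineage were read from lists, which were also chosen with earlier results of these data known. Which cells gave these reads was not tested. Some listed genes were far above the 9 in level, such as Ptprz1 of the precursor list at 233 to 377 CPM. Of 19 further precursor genes 0 rose and 7 fell in the mutants (10.9% and 9.74% of all genes), with a median log2 change of -0.33. Rlbp1, a retinoid-binding protein gene, fell from 35.5 ± 4.89 to 15.0 ± 2.03 CPM (log2 -1.24, SE 0.13, edgeR adjusted p = 0.00177). Emid1 fell from 8.05 ± 0.836 to 4.73 ± 0.252 CPM (-0.78, adjusted p = 0.00369). Scrg1 and Matn4, an extracellular matrix gene, were low in all libraries and fell by 1.06 and 1.48 (adjusted p = 0.0121 and 0.0122). Of these 4 genes, the mutants lay below all controls in Rlbp1, Emid1 and Matn4, a pattern shown by 8.61% of all genes tested. The 4 were named for their small p, which favours such a gap. The Scrg1 call was lost in the 6 libraries that express Hox genes (adjusted p = 0.0680) and that of Matn4 without mutant 260-1 (0.0534). In the 6 libraries that express Hox genes 6 of the 19 fell and 0 rose, against 5.65% and 5.64% of all genes. Toward E14.5 4 of the 19 rose and 0 fell, against 2.24% and 1.01%, among them Scrg1 by 1.29 (adjusted p = 0.0359) and Cspg5, a proteoglycan gene, by 0.47 (adjusted p = 0.0374).

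Of 22 tested genes of committed oligodendrocytes and myelin 1 rose and 7 fell, where 10.9% and 9.74% of all genes did, with a median of -0.30. Nfasc, which encodes the adhesion protein neurofascin and is also a neuronal gene, fell from 248 ± 20.4 to 174 ± 2.46 CPM (log2 -0.51, SE 0.07, edgeR adjusted p = 0.00292). Gal3st1, which makes the myelin lipid sulfatide, fell from 2.13 ± 0.525 to 0.892 ± 0.264 CPM (-1.31, SE 0.17, adjusted p = 0.00294). Omg (oligodendrocyte myelin glycoprotein) fell from 2.71 ± 0.727 to 1.29 ± 0.357 CPM (-1.12, adjusted p = 0.00459) and Aspa (aspartoacylase) from 1.55 ± 0.104 to 0.975 ± 0.117 CPM (-0.67, adjusted p = 0.0226). The Aspa call was lost without mutant 260-1, mutant 303-2, control 260-2, control 195-2 or control 303-3 (adjusted p = 0.0561 to 0.0906) and in the 6 libraries that express Hox genes (0.103). In the 6 libraries that express Hox genes 4 of 23 fell and 0 rose, where 5.65% and 5.64% of all genes did. Opalin, a late myelin gene, was at 0 CPM in 6 of 8 libraries and at most 0.0452 CPM in the others.

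**Figure D4:**
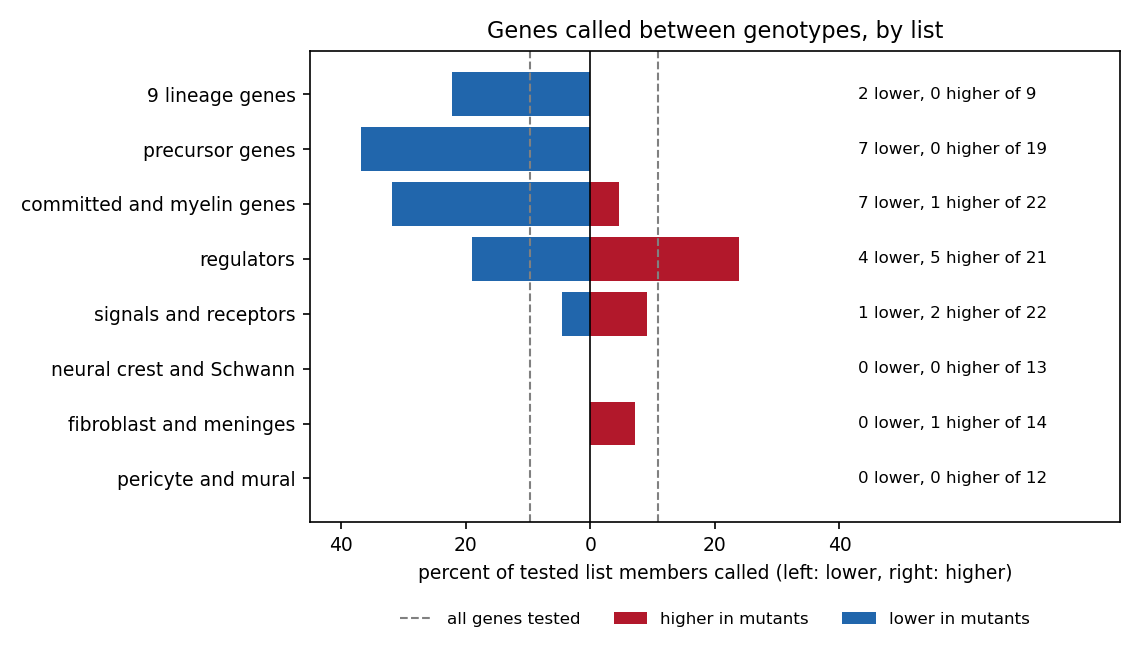
Share of the tested genes of each list (y axis) called lower (left) or higher (right) in the mutants, in percent (x axis), with the counts at the right and dashed lines at the shares of all genes tested (9.74% lower, 10.9% higher). The precursor list has 7 of 19 and the committed and myelin list 7 of 22 called lower, while the regulators have calls on both sides.

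Regulators of the lineage went both ways. Of 21 tested, 5 rose and 4 fell (10.9% and 9.74% of all genes), with a median log2 change of -0.01. In the 6 libraries 5 rose and 2 fell (5.64% and 5.65% of all genes). Hes5, a Notch effector, and Id4, both known as inhibitors of oligodendrocyte differentiation, rose from 25.5 ± 3.76 to 46.7 ± 11.1 CPM (log2 0.90, SE 0.14, edgeR adjusted p = 0.00495) and from 296 ± 24.7 to 402 ± 10.6 CPM (0.45, SE 0.07, adjusted p = 0.00396). The ventral homeobox genes Nkx2-2 and Nkx6-2 rose from 5.97 ± 0.456 to 9.78 ± 1.89 CPM (0.72, adjusted p = 0.00885) and from 3.61 ± 0.998 to 7.35 ± 1.38 CPM (1.09, adjusted p = 0.0109). In each of these 4 genes, also named for their small p, all 3 mutants lay above all 5 controls, as in 11.3% of all genes tested. Between stages Sox9 fell toward E14.5 by 0.36 (adjusted p = 0.0468). The stage calls of Sox9, Scrg1 and Cspg5 were each lost without mutant 260-1, control 260-2, control 260-3, control 195-2 or control 303-3. Of 22 signal and receptor genes 2 rose and 1 fell, where 10.9% and 9.74% of all genes did, and in the 6 libraries 1 rose and 0 fell. Cxcr4 rose by 0.37 (adjusted p = 0.0105), Shh, which induces Olig2 in ventral progenitors, by 0.44 (adjusted p = 0.0326), and Fgfr1 fell by 0.20 (adjusted p = 0.0253), and the Shh and Fgfr1 calls held in 8 and 9 of 19 alternatives. Pdgfa, which encodes the ligand of Pdgfra, was at 10.4 to 15.6 CPM in mutants and 12.8 to 16.8 CPM in controls and was not called. Without single libraries, Shh was lost when control 260-2, 195-2, 195-6 or 303-3 or mutant 195-3 or 303-2 was left out, and Fgfr1 when control 260-2, 195-2 or 303-3 or mutant 260-1 or 303-2 was. Both were also lost in the 6 libraries (adjusted p = 0.0610 and 0.129). Of the 22, 1 gene, Lingo1, rose toward E14.5 by 0.52 (adjusted p = 0.0438), a call that held in 9 of 16 alternatives. It was lost with upper quartile factors, without mutant 260-1 or control 260-2, 260-3, 195-2 or 303-3, and in the 6 libraries (adjusted p up to 0.233).

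The region markers moved with several of these values. Mutant 260-1, lowest in Gpr17, Sox10, Olig1 and Pdgfra, was the library with the lowest Hox sum. Control 195-6, whose Hox sum was also near 0, had the lowest level of the 3 E14.5 controls in all 9 genes. The share of all genes with that order was not counted. The gap was narrow for Olig2 (19.9 against 20.1 and 22.7 CPM) and Sox8 (23.0 against 23.5 and 24.7 CPM). Control 195-6 was above both E13.5 controls in Olig1, Pdgfra, Cspg4 and Gpr17. It was between them in Cnp and Sox8 and below both in Olig2, Sox10 and Mbp. Mutants 195-3 and 303-2, lowest in Sox8 and Olig2, had the lowest telencephalon sums, and Bcl11b, the telencephalon gene called over all libraries, was at 70.1 and 92.1 CPM there against 191 to 216 CPM in the controls. In mutant 260-1, whose telencephalon sum was high (1697 CPM), Bcl11b was at 157 CPM, also below all controls. Its call (log2 -0.98, edgeR adjusted p = 0.0261) was lost without mutant 303-2 (0.122), control 195-2 (0.0703) or control 303-3 (0.0589). Mbp was below all controls in all 3 mutants, but each mutant had either Hox genes near 0 or a low telencephalon sum. Among the mutants Mbp was lowest in 260-1 (23.0 CPM), and among the controls in 195-6 (30.8 CPM), the 2 libraries with Hox genes near 0. The part of regional content in these results was not tested.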

How the data were processed

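RNA-seq libraries of 8 embryonic mouse brains, 3 mutants and 5 controls, were analysed. Per the labels' protocols, RNA was column-purified with DNase digestion and a TruSeq RNA kit, which does not mark strand, was used for the libraries. The deposited table holds expected counts, estimated reads per gene that the authors did not normalise and of which 66.0% to 68.9% per library are whole numbers. The submitters' processing notes name TopHat2 2.0.9, HTSeq 0.5.4p5, edgeR 3.4.2, mm10 and GRCm38 without a role, and how reads were counted is not given in those sources. Identifiers were matched to GENCODE M21 (GRCm38) for 34652 of 34866 genes.

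Expected counts were rounded to whole numbers. Genes were kept by filterByExpr (minimum count 10, 17357 genes) and scaled by TMM. The edgeR 4.0.16 quasi-likelihood test (R 4.3.3) with stage and genotype in the model gave log2 changes, with Benjamini-Hochberg adjustment over all genes tested and a threshold of 0.05. CPM are counts scaled to library size with TMM factors, and log2 CPM uses a prior count of 2. P-values rest on the spread between embryos. The test was checked on simulated counts. The alternatives were other scalings and filters, DESeq2 1.42.0, a length and GC offset, other sets of libraries and other covariates.

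The genes and lists were chosen with earlier results of these data known. Of each list up to 4 genes past the threshold for genotype and up to 2 for stage were named by smallest p. Opalin, Pdgfa, Lims2, Dnajc7 and Bcan stand outside that rule and were chosen after their values were seen. Some listed genes are not reported here.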

Additional observations from a re-analysis of the deposited data

Results flagged for a closer look

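Rlbp1, of the precursor list, had a control value far from the others. Control 195-6 was at 44.0 CPM, and the other controls were between 31.8 and 34.7 CPM. All 3 mutants were at 12.7 to 16.5 CPM, so the genotypes stayed apart without it. Among 37 genes whose 5 controls were examined in this way 1 such value appeared, and chance flags about 1 in 20 groups.

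Bcan, which encodes the proteoglycan brevican and belongs to the precursor list, had a genotype difference that was not the same in the E13.5 and E14.5 libraries (interaction log2 1.70, SE 0.24, edgeR adjusted p = 0.0440). The call was lost without control 260-2, 260-3, 195-2 or 303-3 (adjusted p up to 0.222) and with upper quartile factors or a minimum count of 50. It was at 7.82 CPM in mutant 260-1 against 38.6 and 40.3 CPM in controls 260-2 and 260-3, and at 30.7 and 25.2 CPM in mutants 195-3 and 303-2 against 45.5, 36.6 and 48.6 CPM in controls 195-2, 195-6 and 303-3. All 3 mutants lay below all 5 controls, as in 8.61% of all genes tested, with a log2 change of -1.16 (SE 0.34, adjusted p = 0.0567) over all libraries. The E13.5 side rests on 1 mutant, 260-1, the library with the lowest Hox sum, so stage cannot be told apart from that embryo.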

How the results depend on the processing

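The negative sign of the genotype change held for all 9 genes in each of 19 alternatives. The calls of Mbp and Sox8 held in 17 and 10 of 19. Of the genes not called over all libraries, Pdgfra and Gpr17 passed in 6 each, Olig1 in 2, Cspg4 in 1 and Olig2, Sox10 and Cnp in 0. The number of the 9 called (2) became 5 with DESeq2, 4 with a minimum count of 50, 1 with the length and GC offset, 4 in the 6 libraries that express Hox genes, 1 without stage and 1 at E14.5, and ranged from 1 to 4 when single libraries were left out. The genes called higher and lower (1885 and 1691) became 1240 higher with upper quartile factors, 890 and 588 without stage, 766 and 752 at E14.5, and 984 and 986 with the 6 libraries. Single libraries moved them between 632 and 2517 and between 685 and 2467. By correlation of deviations from the genotype means, mutants 260-1 and 303-2 were most like the controls of their own title number (0.202 and 0.15). Mutant 195-3 was most like the control of 303 (0.233, against 0.032 for 195). These deviations also carry stage and region marker differences, so the check cannot settle whether the numbers pair the samples. With the number as a block 1 of the 9 was called, Mbp, and 1382 genes were higher and 1316 lower, and at E14.5 with the block 1 of the 9, Sox8, with 237 higher and 341 lower.

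Stage calls (389 higher, 176 lower, 1 of the 9) became 193 higher and 0 of the 9 with upper quartile factors, 648 and 313 without a filter, 1423, 941 and 4 of the 9 with DESeq2, 346 lower with the offset, 369 lower and 2 of the 9 in controls, and 21 and 7 in the 6 libraries, a set added after seeing the data. Single libraries gave 0 to 936 higher, 0 to 579 lower and 0 to 2 of the 9. Olig2 and Sox8 reversed to 0.0156 and 0.0851 in controls and 0.0553 and 0.111 in the 6 libraries, and ranged from -0.249 to 0.0102 and from -0.282 to 0.0807 without single libraries. Interaction calls (4 higher, 14 lower, 0 of the 9) became 2 higher with upper quartile factors or a minimum count of 50, 106 and 50 with 1 of the 9 (Gpr17) without a filter, and 182 and 60 with 2 of the 9 by DESeq2. Single libraries gave 0 to 505 higher, 6 to 546 lower and 0 to 2 of the 9, with Cspg4 from -0.290 to 0.354 and Mbp from -0.00236 to 0.145, and could not be fitted without mutant 260-1, the only E13.5 mutant. The cause was not tested. Sox10 and Gpr17 rest on few counts in mutant 260-1, which limits their precision.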
